A study of Homo sapiens with 3 samples.

Results

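Lung and epithelial lineage transcription factors were examined in H1975, a human cell line grown from a lung adenocarcinoma. The genes were chosen by name from a list of 9 factors: NKX2-1, FOXA1, FOXA2, GATA6, CEBPA, SOX2, SOX9, ELF3 and KLF5. Of these, 8 were measured among the 16662 genes of the deposited table, and FOXA1 was not analysed here. All 8 lay above the expression filter of a mean of at least 1 CPM (reads scaled to the size of the library) that left 13879 genes.

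The cells had been transfected with siHHLA3-1, with siHHLA3-3 or with siNC. Both siHHLA3 reagents are small interfering RNAs (siRNAs) against HHLA3, labelled as HHLA3-1 and HHLA3-3 knockdown, and siNC is the control siRNA, labelled as NC knockdown. After transfection at about 70% confluency, all cells spent 6 h without serum and a further 24 h in medium with 10% serum. Although the source label reads lung cancer tissue, the cell line label and the protocols describe cultured H1975 cells. There was 1 library for each siRNA, and the labels give each library a batch of its own, so siRNA and batch cannot be told apart. The library totals were 35069930 reads for siHHLA3-1, 26950852 for siHHLA3-3 and 32813003 for siNC. No value has a replicate error, every interval is an exact 95% interval for counting error alone, and each comparison describes these 3 libraries. The RNA came from whole cultures, so fewer cells with a transcript and less of it per cell cannot be told apart.

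The targeted gene was lower in both knockdown libraries. HHLA3 stood at 1.55 CPM with siHHLA3-1 and 0.735 CPM with siHHLA3-3, against 5.99 CPM with siNC. Epithelial markers were abundant in all 3 libraries: the 8 listed (EPCAM, CDH1, KRT7, KRT8, KRT18, KRT19, CLDN4 and CLDN7) summed to 5713 TPM with siHHLA3-1, 4905 TPM with siHHLA3-3 and 5753 TPM with siNC. TPM is the authors' abundance per transcript length and library, and it is used here wherever levels of different genes are compared.

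Lineage transcription factors hold an epithelial cell to its identity by binding the enhancers and promoters of the genes that mark it. In the lung, NKX2-1 and the forkhead factors FOXA1 and FOXA2 act together on surfactant and other alveolar genes, GATA6 and CEBPA take part in the formation and maturation of the alveolar epithelium, SOX2 marks the proximal airway and SOX9 the distal tips of the developing tree. ELF3 and KLF5 are factors of many epithelia. Lung adenocarcinomas are commonly classed by whether they keep NKX2-1, also known as TTF-1.

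Short sequences carried by NKX2-1 and GATA6 are shown first. All 7-base sequences were scanned in 3' untranslated regions (UTRs) of protein-coding transcripts, taken from GENCODE release 29. The scan covered the 10495 genes that averaged 5 CPM or more and had such a region. Each sequence was ranked by the mean log2 ratio to siNC of its carriers less that of the other genes. That difference was taken over its standard error. The lowest was CAGAATG with siHHLA3-1 and GTGAACT with siHHLA3-3. This measure also grows with the number of carriers, so it need not pick the sequence whose carriers lay lowest. Since both were picked from these same ratios, carriage is given as a description. NKX2-1 carries GTGAACT and GATA6 carries CAGAATG, once each. No match to either was found in the annotated 3' UTRs of FOXA2, CEBPA, SOX2, SOX9, ELF3 and KLF5. HHLA3 carries GTGAACT, and its site is shown beside the others. The matches are in capitals, each within 29 bases read 5' to 3' on the strand of the gene, and the coordinates are those of GRCh38.
NKX2-1, minus strand, chr14:36516656-36516684: gtttgtttaatGTGAACTtgtagctgtaa
GATA6, plus strand, chr18:22202495-22202523: gtttcacaataCAGAATGatggcctttaa
HHLA3, plus strand, chr1:70367799-70367827: gcgattaacctGTGAACTtccttctcctg

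Of the genes searched, 13.2% carried GTGAACT and 19.5% carried CAGAATG. Over siNC, the 1381 carriers of GTGAACT had a median log2 ratio of -0.20 with siHHLA3-3, and the other genes -0.0034. The 2045 carriers of CAGAATG had a median of -0.09 with siHHLA3-1, and the other genes -0.02. What the siRNAs themselves read is not known here.

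Every factor but KLF5 overlaps another annotated gene in GENCODE 29, on the same strand for FOXA2 and SOX2, on the opposite strand for GATA6, CEBPA and SOX9, and on both strands for NKX2-1 and ELF3. Reads of such pairs may have been split or shared in the counting. In GRCh38, FOXA2 lies at chr20:22581005-22585455 and CEBPA at chr19:33299934-33302564, both on the minus strand. On the plus strand lie GATA6 at chr18:22169443-22202528, SOX9 at chr17:72121020-72126420, ELF3 at chr1:202007945-202017188 and KLF5 at chr13:73054976-73077542.

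The levels were ordered first, per transcript length. ELF3, an ETS-family factor of epithelial cells, had the highest mean of the 8, at 72.9 TPM, with values between 48.6 and 95.1 TPM over the libraries. SOX9, an HMG-box factor of the distal lung tip, averaged 67.0 TPM (57.0 to 75.3), NKX2-1 averaged 63.9 TPM (39.5 to 81.0) and KLF5, a Krüppel-like zinc finger factor, averaged 41.8 TPM (32.3 to 51.5). The ranges of neighbours among these 4 overlapped, so their order differed between libraries. ELF3 and NKX2-1 held the first and second places with siHHLA3-1 and with siNC, whereas SOX9 and KLF5 held them with siHHLA3-3.

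FOXA2, a forkhead factor that opens chromatin in endoderm, averaged 21.6 TPM (18.7 to 23.2) and lay below 4 factors and above 3 in every library. Its range overlapped neither that of KLF5 above it nor that of SOX2 below it. SOX2, an HMG-box factor of airway and stem cells, averaged 10.2 TPM (6.33 to 14.1), GATA6, a zinc finger factor of endoderm, 4.37 TPM (3.35 to 6.36) and CEBPA, a leucine zipper factor, 3.53 TPM (3.47 to 3.58). Against all listed genes by mean TPM, ELF3 stood at or above 86.4% of them, FOXA2 at or above 61.5% and CEBPA at or above 23.7%.

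**Figure D1:**
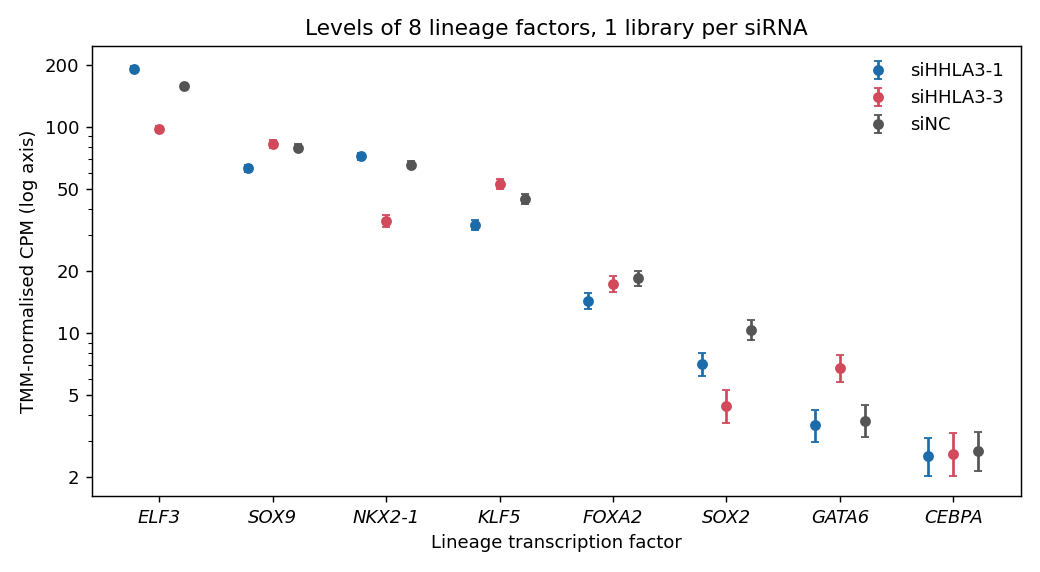
Level of each lineage factor (TMM-normalised CPM, log axis) in the siHHLA3-1, siHHLA3-3 and siNC libraries, in the order of mean TPM; points are single libraries and bars are 95% counting intervals. NKX2-1, ELF3 and SOX2 are lowest in the siHHLA3-3 library, GATA6 is highest there, and the 3 CEBPA points lie between 2.53 and 2.68 CPM.

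The comparison of siHHLA3-1 with siNC asks how the factors stood with the first HHLA3 siRNA. No factor reached a 2-fold difference on the log2(CPM + 1) scale, where 1.35% of all genes above the filter did (0.973% higher and 0.382% lower), and none reached 1.5-fold, where 8.37% did (5.03% higher and 3.34% lower). The log2 ratios ran from -0.50 for SOX2 to 0.28 for ELF3, and 2 factors were above 0 and 6 below. Their median was -0.19, beside -0.01 over all genes, and the median of their sizes was 0.30, beside 0.20 over all genes.

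By more than counting error, 4 factors were lower than with siNC, but the share of all genes that were so was not computed. SOX2 stood at 7.07 CPM with siHHLA3-1 (251 counts), against 10.4 CPM with siNC (333 counts), and was 1.47-fold lower (1.24 to 1.74). KLF5, which supports the growth of epithelial progenitors, stood at 33.3 CPM with siHHLA3-1, against 44.7 CPM with siNC, and was 1.34-fold lower (1.24 to 1.45). FOXA2 stood at 14.3 CPM with siHHLA3-1, against 18.5 CPM with siNC. The counting intervals of the siHHLA3-1 and siNC levels did not overlap for these 3 genes, nor for SOX9.

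SOX9 stood at 62.9 CPM with siHHLA3-1, against 79.1 CPM with siNC, and was 1.26-fold lower (1.19 to 1.33). ELF3 was higher, at 192 CPM with siHHLA3-1 against 158 CPM with siNC, or 1.22-fold (1.17 to 1.26). NKX2-1 stood at 72.0 CPM with siHHLA3-1, against 65.7 CPM with siNC, a ratio of 1.10 (1.03 to 1.16). The intervals of the ratio held 1 for the other two, GATA6 at 0.948 (0.733 to 1.23) and CEBPA at 0.945 (0.696 to 1.29). The depth thus did not resolve a difference for either. GATA6, which carries CAGAATG, was not among the lower genes: 54.5% of the carriers of that sequence had a ratio at or below its own, and 44.6% of the other genes searched. That sequence too was picked from these same ratios, so the difference between the shares was built in.

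The comparison of siHHLA3-3 with siNC asks the same of the other siRNA. SOX2, NKX2-1 and ELF3 were lower and GATA6 was higher. At least 2-fold apart was 1 of the 8, SOX2, where the share over all genes was 2.28% (0.807% higher and 1.48% lower). At least 1.5-fold apart were 4, where the share was 9.22% (3.65% higher and 5.57% lower): SOX2, NKX2-1 and ELF3 below and GATA6 above. The 8 log2 ratios ran from -1.06 to 0.70 with a median of -0.06, beside -0.0099 over all genes, and the median of their sizes was 0.46, beside 0.19 over all genes.

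SOX2 stood at 4.44 CPM with siHHLA3-3 (121 counts), against 10.4 CPM with siNC (333 counts). It was 2.34-fold lower (1.89 to 2.90), and 1.84% of all genes above the filter had a ratio at least as far from 0. SOX2 was thus the lowest of the 8 against siNC with each siRNA, by 1.47-fold and 2.34-fold, but these comparisons share the siNC library. It is known for keeping airway progenitors undifferentiated and is often gained in squamous lung cancer. In GENCODE 29 SOX2 is a single exon gene on the plus strand at chr3:181711924-181714436 (GRCh38), inside the long noncoding SOX2-OT on the same strand, so its reads could include those of that transcript.

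NKX2-1 stood at 35.003 CPM with siHHLA3-3 (953 counts), against 65.7 CPM with siNC (2107 counts). It was 1.88-fold lower (1.74 to 2.03), with a log2 ratio of -0.89, and 3.13% of all genes lay at least as far from 0. Its 3' UTR carries GTGAACT, the sequence shown above, at bases 605 to 611 of the 886 annotated. Of the carriers of that sequence, NKX2-1 among them, 10.9% had a ratio at or below that of NKX2-1, against 1.15% of the other genes. The sequence was picked for low carriers in these same ratios, so an excess of low carriers was built in. The part of the sequence in the NKX2-1 value was not tested. NKX2-1 is on the minus strand at chr14:36516392-36521149 (GRCh38).

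ELF3 stood at 97.7 CPM with siHHLA3-3 (2661 counts), against 158 CPM with siNC (5055 counts), and was 1.61-fold lower (1.54 to 1.69). GATA6 stood at 6.76 CPM with siHHLA3-3 (184 counts), against 3.77 CPM with siNC (121 counts), and was 1.79-fold higher (1.42 to 2.27). It was the only factor more than 1.5-fold higher than siNC in either knockdown library. GATA6 works beside NKX2-1 on lung promoters and is also a factor of gut and pancreatic epithelium.

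The remaining 4 factors were closer to siNC. KLF5 stood at 53.0 CPM with siHHLA3-3, against 44.7 CPM with siNC, a ratio of 1.18 (1.10 to 1.27). For FOXA2 at 0.939 (0.831 to 1.06), SOX9 at 1.05 (0.988 to 1.11) and CEBPA at 0.973 (0.700 to 1.35), the interval held 1. CEBPA, with 90, 71 and 86 counts in the siHHLA3-1, siHHLA3-3 and siNC libraries, was the least precise of the 8 and had overlapping intervals in all 3.

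**Figure D2:**
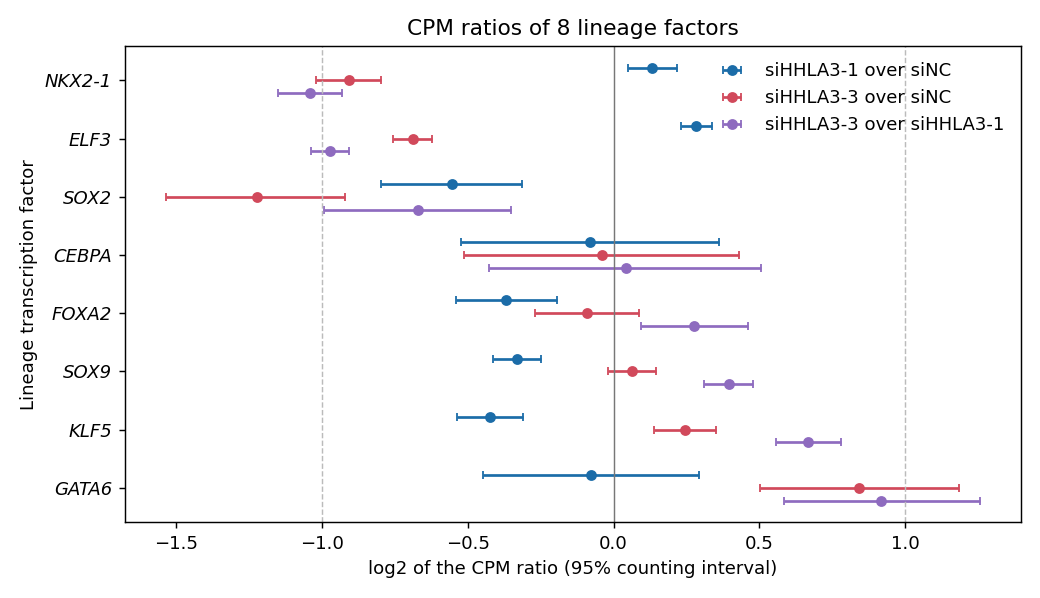
CPM ratio of each lineage factor (log2 axis, no pseudocount) for siHHLA3-1 over siNC, siHHLA3-3 over siNC and siHHLA3-3 over siHHLA3-1; bars are 95% counting intervals and dashed lines mark 2-fold. NKX2-1 and ELF3 lie to the right of 0 for siHHLA3-1 and to the left for siHHLA3-3, SOX2 lies to the left for both, and GATA6 lies to the right for siHHLA3-3.

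The direct comparison of siHHLA3-3 with siHHLA3-1 does not use the siNC library. Of the 8 factors, 1 was at least 2-fold apart, NKX2-1, where 2.87% of all genes were (0.757% higher and 2.12% lower), and 4 were at least 1.5-fold apart, where 12.2% of all genes were (4.4% higher and 7.82% lower). NKX2-1 was 2.06-fold lower with siHHLA3-3 (1.91 to 2.22), with a log2 ratio of -1.02, just past the threshold. ELF3 was 1.96-fold lower (1.88 to 2.05), with a log2 ratio of -0.97, just short of it. GATA6 was 1.89-fold higher (1.499 to 2.39) and KLF5 1.59-fold higher (1.47 to 1.72).

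SOX2 was also lower with siHHLA3-3, by 1.59-fold (1.28 to 1.99), which on the log2(CPM + 1) scale was -0.57 and under 1.5-fold. SOX9 was 1.31-fold higher (1.24 to 1.39) and FOXA2 1.21-fold higher (1.07 to 1.38), and for CEBPA the interval held 1. In all, 4 factors were higher and 3 lower with siHHLA3-3 by more than counting error. The share of all genes that were so was not computed, and at this depth small ratios also pass, so these counts set the factors apart from no other genes. The median of the 8 ratios was 0.15, beside 0.0029 over all genes, and the median of their sizes was 0.61, beside 0.22.

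The relative make-up of the 8 factors followed these differences. Their TPM summed to 301 with siHHLA3-1, 254 with siHHLA3-3 and 301 with siNC. NKX2-1 made up 26.9% of that sum with siHHLA3-1, 15.6% with siHHLA3-3 and 23.6% with siNC, and ELF3 31.6%, 19.1% and 24.9% in the same libraries. SOX9 made up 18.9% with siHHLA3-1, 29.6% with siHHLA3-3 and 22.9% with siNC, and KLF5 10.7%, 20.3% and 13.8%. SOX9 and KLF5 thus took a larger share of the lineage factor transcripts with siHHLA3-3 than with siNC, although SOX9 itself stood at nearly the same level.

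The ratio of NKX2-1 to GATA6 in TPM was 24.2 with siHHLA3-1, 6.22 with siHHLA3-3 and 20.9 with siNC. SOX2 amounted to 17.6% of SOX9 in TPM with siHHLA3-1, 8.40% with siHHLA3-3 and 20.5% with siNC. The siHHLA3-3 library was the one that stood apart in both.

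**Figure D3:**
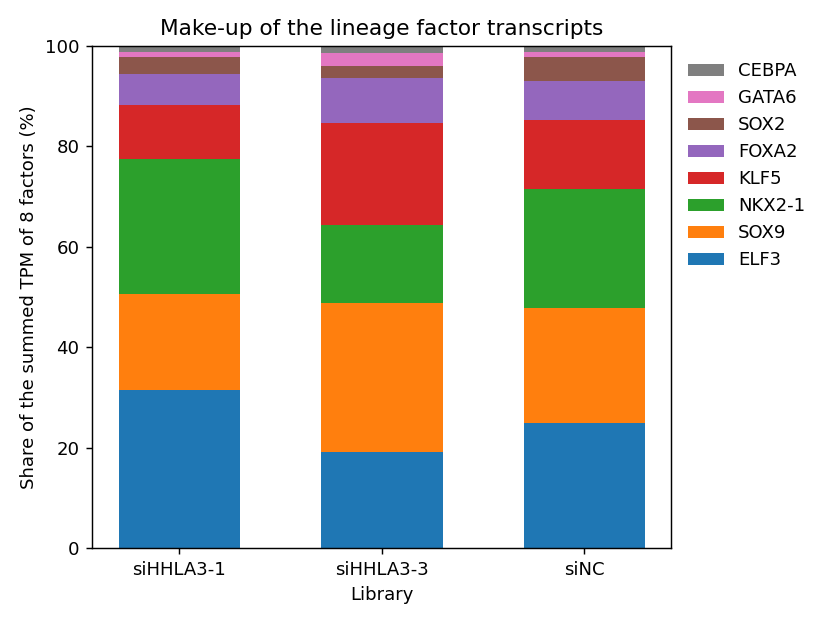
Share of each factor in the summed TPM of the 8 lineage factors (stacked bars, %) in the siHHLA3-1, siHHLA3-3 and siNC libraries, 1 library each. NKX2-1 and ELF3 take 15.6% and 19.1% with siHHLA3-3, against 23.6% and 24.9% with siNC.

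The series' design text names siHHLA3 as 1 treatment, so both knockdown libraries together were also set against the siNC library. By edgeR's quasi-likelihood test with Benjamini-Hochberg adjustment over 13879 genes, 0 of the 8 factors passed an adjusted p of 0.05, and 1 gene in all did (0.00721%). At an unadjusted p under 0.05 there were 0 factors and 349 genes. SOX2 came nearest, with a log2 change of -0.85, an unadjusted p of 0.0581 and an adjusted p of 1.00 in edgeR. DESeq2 also called 0 factors, and 5 genes in all. HHLA3 itself had an adjusted p of 1.00 in this edgeR fit, which has 1 residual degree of freedom and counts differences between the siRNAs as spread.

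ELF3 and NKX2-1 each have an annotated promoter whose sequence is shown, because these were the factors that lay above siNC with siHHLA3-1 and below it with siHHLA3-3. The sequences are those of RefSeq (GRCh38.p14), from 250 bases before to 50 bases after an annotated start, 5' to 3' on the strand of the gene. Capitals mark matches on either strand to a short core motif of each of the 7 factor families. The letters searched were TGTTTAC for the forkhead factors of the FOXA group. For the homeodomain of NKX2-1 they were CACTTG, and for the zinc fingers of the GATA group AGATAA. The HMG box of the SOX group was searched as ACAATG, and the ETS domain, which ELF3 shares with its relatives, as AGGAAG. The Krüppel-like factors were searched as CACCC, and the leucine zipper factors of the C/EBP group, of which CEBPA is a member, as TTGCGCAA.
NKX2-1, minus strand, chr14:36519507-36519806: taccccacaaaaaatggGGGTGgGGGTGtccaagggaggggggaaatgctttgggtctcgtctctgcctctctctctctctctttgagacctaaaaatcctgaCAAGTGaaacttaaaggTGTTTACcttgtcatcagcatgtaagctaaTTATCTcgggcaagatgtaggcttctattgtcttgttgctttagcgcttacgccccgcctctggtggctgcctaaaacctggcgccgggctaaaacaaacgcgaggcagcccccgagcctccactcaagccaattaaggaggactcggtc
ELF3, plus strand, chr1:202010337-202010636: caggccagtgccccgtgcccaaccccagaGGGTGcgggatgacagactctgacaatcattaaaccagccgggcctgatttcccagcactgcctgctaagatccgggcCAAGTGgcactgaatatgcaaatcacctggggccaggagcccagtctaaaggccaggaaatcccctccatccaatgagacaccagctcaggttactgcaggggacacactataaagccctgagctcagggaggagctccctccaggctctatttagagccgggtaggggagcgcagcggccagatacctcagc

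The NKX2-1 promoter shown held the FOXA, NKX2-1 and GATA motifs once each and the KLF motif at 2 places. Over the 35116 promoters of the table, 3.42% held the FOXA motif, 11.5% the NKX2-1 motif, 10.3% the GATA motif and 59.9% the KLF motif. The ELF3 promoter held the NKX2-1 motif and the KLF motif once each. The SOX motif (10.8% of all promoters), the ETS motif (33.6%) and the C/EBP motif (0.151%) had no match in either. NKX2-1 has another promoter in the table, with 2 KLF matches and none of the others. These are matches of letters and were not related to the measured values.

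Transcripts near the factors were read next. SFTA3, a surfactant-associated gene on the same strand beside NKX2-1, stood at 6.34 CPM with siHHLA3-1, 3.09 CPM with siHHLA3-3 and 5.58 CPM with siNC. Its log2 ratios to siNC were 0.16 with siHHLA3-1 and -0.69 with siHHLA3-3, beside 0.13 and -0.89 for NKX2-1. MBIP, the next gene listed on that side, had ratios of 0.15 and -0.34, and NKX2-8, a related homeobox gene on the other side, 0.55 and 0.43. SFTA3 thus lay lower with siHHLA3-3 (84 counts), as NKX2-1 did, and NKX2-8 lay higher. Another annotated entry of SFTA3, not measured here, overlaps NKX2-1 by 3130 bases on the same strand. Whether reads of SFTA3 and NKX2-1 were shared was not tested.

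ELF3-AS1, an antisense gene that overlaps ELF3 by 2519 bases, was named after its values were seen. It stood at 6.32 TPM with siHHLA3-1, 4.08 TPM with siHHLA3-3 and 5.30 TPM with siNC, far below ELF3. Its CPM ratio to siNC was 0.736 (0.605 to 0.893) with siHHLA3-3, on the side of ELF3, and with siHHLA3-1 the interval held 1, at 1.14 (0.975 to 1.34). The strand setting of the counting is not known here, so reads of ELF3 and ELF3-AS1 cannot be told apart with certainty. Another measured transcript lies within ELF3 on the same strand and overlaps it by 4288 bases. Its reads may have been shared with ELF3 whatever the strand setting. RNPEP, an aminopeptidase gene beside ELF3, had log2 ratios over siNC of -0.17 with siHHLA3-1 and -0.16 with siHHLA3-3. CEBPG, a C/EBP relative near CEBPA, stood at 43.1 CPM with siHHLA3-1, 62.4 CPM with siHHLA3-3 and 40.6 CPM with siNC. Other listed neighbours (LINC00511, MIPOL1, MIB1, ESCO1, KLF12, ATP11B and DNAJC19) had log2 ratios to siNC between -0.36 and 0.30.

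Genes of the surfactant and NKX2-1 programme came from a list of 28, of which 12 were measured and 11 lay above the filter. The surfactant protein and secretoglobin genes of the list were not analysed here. With siHHLA3-1, 8 of the 11 were above siNC and 3 below, with a median log2 ratio of 0.03, and with siHHLA3-3 2 were above and 9 below, with a median of -0.14. Over all genes these medians were -0.01 and -0.0099. Past 2-fold were 1 of the 11 with siHHLA3-1 (higher), where 1.35% of all genes were, and 2 with siHHLA3-3 (1 higher and 1 lower), where 2.28% were. Directly between the siRNAs, 9 of the 11 were lower with siHHLA3-3 than with siHHLA3-1, with a median of -0.28, beside 0.0029 over all genes.

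ROR1, a receptor tyrosine kinase known as an NKX2-1 target in lung adenocarcinoma, stood at 16.7 CPM with siHHLA3-1, 4.89 CPM with siHHLA3-3 and 16.5 CPM with siNC. Its log2 ratios were 0.01 and -1.57, so the siHHLA3-3 library alone was low. The 3' UTR of ROR1 carries both CAGAATG and GTGAACT, whose part in these values was not tested. LPCAT1 and OCLN of the same list also carry GTGAACT, with log2 ratios to siNC of -0.38 and -0.10 with siHHLA3-3. LAMP3, a lysosome-associated protein of alveolar type 2 cells that also responds to interferon, stood at 146 CPM with siHHLA3-1, 86.1 CPM with siHHLA3-3 and 64.1 CPM with siNC. CLDN1, a tight junction claudin, stood at 6.73 CPM with siHHLA3-1, 12.8 CPM with siHHLA3-3 and 4.43 CPM with siNC. Both were higher than siNC in each knockdown library, unlike NKX2-1.

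LPCAT1, an enzyme of surfactant lipid synthesis and the most abundant gene of the list, stood at 216 TPM with siHHLA3-1, 186 TPM with siHHLA3-3 and 231 TPM with siNC. ABCA3, the lipid transporter of lamellar bodies, stood at 18.0 TPM with siHHLA3-1, 20.5 TPM with siHHLA3-3 and 20.3 TPM with siNC. The aspartic protease gene NAPSA, a diagnostic partner of NKX2-1, was low throughout, at 5.27 CPM with siHHLA3-1, 3.78 CPM with siHHLA3-3 and 4.71 CPM with siNC.

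**Figure D4:**
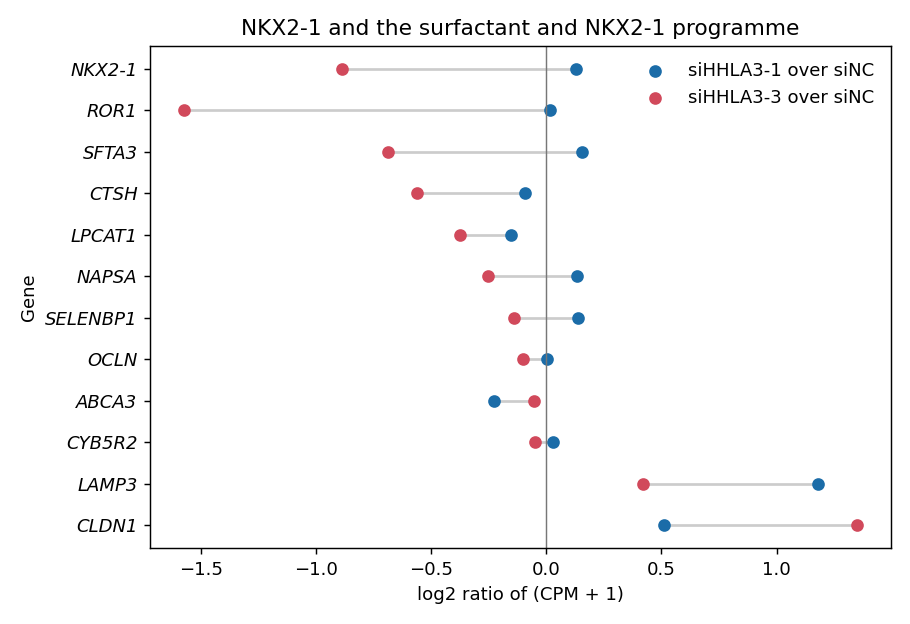
Log2 ratio of (CPM + 1) over siNC with siHHLA3-1 and with siHHLA3-3 for NKX2-1 (top) and the 11 measured genes of the surfactant and NKX2-1 programme above the filter; lines join the 2 values of a gene, and each point is 1 library against 1. Most siHHLA3-3 points lie left of 0, from -1.57 for ROR1, while LAMP3 and CLDN1 lie right of 0 for both siRNAs.

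Relatives of the factors from the same families were measured for 28 of 56 listed genes. With siHHLA3-1, 20 were above siNC and 8 below, with a median log2 ratio of 0.15, beside -0.01 over all genes. With siHHLA3-3, 18 were above and 10 below, with a median of 0.03, beside -0.0099. Past 2-fold were 1 of the 28 with siHHLA3-1 and 0 with siHHLA3-3, where 1.35% and 2.28% of all genes were. SOX21, a SOX2-related repressor, stood at 9.41 CPM with siHHLA3-1, 14.9 CPM with siHHLA3-3 and 23.6 CPM with siNC. Like SOX2 it was below siNC with both siRNAs, but it was lowest with siHHLA3-1 and SOX2 with siHHLA3-3.

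EHF, the closest ETS relative of ELF3 in epithelia, stood at 4.90 CPM with siHHLA3-1, 3.93 CPM with siHHLA3-3 and 2.06 CPM with siNC. KLF4, a factor of differentiated epithelia, stood at 114 CPM with siHHLA3-1, 98.1 CPM with siHHLA3-3 and 72.3 CPM with siNC. Both lay above siNC in each knockdown library, whereas ELF3 and KLF5 lay on opposite sides of it with the different siRNAs. CEBPB, a stress-responsive relative of CEBPA, was far above it, at 153 TPM with siHHLA3-1, 213 TPM with siHHLA3-3 and 132 TPM with siNC. GATA2, named after its values were seen, stood at 69.6 CPM with siHHLA3-1, 35.8 CPM with siHHLA3-3 and 61.3 CPM with siNC. With siHHLA3-3 it lay below siNC, where GATA6 lay above. Its 3' UTR carries GTGAACT, as do those of the relatives KLF7, KLF9 and KLF12. Their log2 ratios to siNC with siHHLA3-3 were 0.23, 0.0093 and 0.05, beside -0.76 for GATA2.

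Other regulators of lung and epithelial identity were measured for 28 of 55 listed genes. With siHHLA3-1, 14 were above siNC and 14 below, and with siHHLA3-3 10 were above and 18 below. Past 2-fold were 1 of the 28 with siHHLA3-1 and 2 with siHHLA3-3, where 1.35% and 2.28% of all genes were. POU2F3, the factor of tuft cells, stood at 18.2 CPM with siHHLA3-1, 3.75 CPM with siHHLA3-3 and 10.0 CPM with siNC. It lay above siNC with siHHLA3-1 and below with siHHLA3-3, as NKX2-1 and ELF3 did, with log2 ratios of 0.80 and -1.22. HMGA2, a chromatin protein that marks poorly differentiated lung adenocarcinoma, stood at 48.5 CPM with siHHLA3-1, 102 CPM with siHHLA3-3 and 44.0 CPM with siNC. Its 3' UTR carries both 7-base sequences. ID2, NR3C1 and TP63 of the same list also carry GTGAACT. Their log2 ratios to siNC with siHHLA3-3 were -0.64, -0.46 and -0.09, beside 1.20 for HMGA2. The part of the sequence in these values was not tested.

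ID2, an inhibitor of basic helix-loop-helix factors found in distal lung tips, stood at 25.3 CPM with siHHLA3-1, 36.1 CPM with siHHLA3-3 and 56.7 CPM with siNC. FOXP4, a forkhead repressor of airway epithelium, lay above siNC by a log2 ratio of 0.80 for siHHLA3-1 and 0.75 for siHHLA3-3. Among the most abundant regulators of the list, the splicing factor ESRP1 had log2 ratios of -0.19 and -0.52 for siHHLA3-1 and siHHLA3-3, and the transcription factor TFAP2C 0.32 and -0.03. The epithelial markers themselves had a median log2 ratio near 0 (0.02) for siHHLA3-1 and of -0.21 for siHHLA3-3. Over all genes these medians were -0.01 and -0.0099. Below siNC were 4 of the 8 with siHHLA3-1 and 7 with siHHLA3-3. For siHHLA3-3, KRT19 lay at -0.63, KRT8 at -0.58 and CLDN7 at 0.38. Past 2-fold were 0 of the 8 with either siRNA, where 1.35% and 2.28% of all genes were.

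Stem-like genes and genes linked with SOX2 were measured for 14 of 24 listed. With siHHLA3-1, 5 were above siNC and 9 below, and with siHHLA3-3 6 were above and 8 below. Past 2-fold was 1 of the 14 with each siRNA, SOX21 for siHHLA3-1 and ABCG2 for siHHLA3-3, both lower, where 0.382% and 1.48% of all genes were that much lower. ABCG2, a drug efflux transporter of side population cells, stood at 33.7 CPM with siHHLA3-1, 18.0 CPM with siHHLA3-3 and 37.5 CPM with siNC. CCND1, cyclin D1, stood at 177 CPM with siHHLA3-1, 516 CPM with siHHLA3-3 and 328 CPM with siNC. MYC stood at 338 CPM with siHHLA3-1, 528 CPM with siHHLA3-3 and 360 CPM with siNC. The list held no common direction, and SOX2 lay below its median with each siRNA.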

How the data were processed

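Total RNA (1 ug) from 3 samples of H1975 cells was made into Illumina libraries, per the labels' protocols. The authors deposited 1 table of 16662 genes with read counts, CPM, TPM and FPKM for each library. The deposited counts are whole numbers per gene and not normalised. The deposited CPM are the counts scaled to the library total, and the deposited TPM and FPKM are scaled by gene length and library, per the file headers. HISAT2, HISAT, TopHat2, Bowtie2 and the build hg19 are named in the submitters' processing notes. Counting program, annotation and strand setting: not given in the sources used here. No listed gene had FPKM that summed to less than 1.00 over the 3 libraries.

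Library totals were recovered from counts and CPM; unlisted genes held 0.305% to 0.355% of them. Counts were scaled with TMM factors (edgeR 4.0.16, R 4.3.3) of 1.01, 1.01 and 0.978 for siHHLA3-1, siHHLA3-3 and siNC. Ratios are log2 of (CPM + 1) over (CPM + 1), so that differences of low genes come out too small; folds are ratios of CPM without the added 1. Intervals are exact 95% Poisson (levels) or binomial (ratios) intervals and cover counting error only. A floor of 3 counts corresponded to 0.0845, 0.110 and 0.0935 CPM. With 1 library per group, a gene was counted at a 2-fold ratio and no p was computed. The fit of both siHHLA3 libraries against siNC used edgeR, with DESeq2 1.42.0 as an alternative; this takes the single siNC library to vary as much as the rest. The remaining steps ran in Python 3.11.15 with pandas 2.3.3, scipy 1.17.1 and numpy 2.4.6. Loci and 3' UTRs are from GENCODE 29 (GRCh38), not the authors' build.

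The members, gene lists and tests were chosen with earlier results of these data known. Genes named outside the 9 factors, HHLA3 and the listed neighbours were those past 2-fold with either siRNA, up to 4 per list with the largest mean ratio and up to 3 with the highest TPM, unless stated; some genes that this rule names are not reported here. On simulated data, the 2-fold rule for siHHLA3-1 over siNC found 100% of the 100 raised genes and 99% of the 100 lowered ones. These were among 13883 genes, and each was moved by a log2 of 1.5. The simulated counts carried counting error alone, and the moved genes had means of at least 5 CPM. Each move was larger than the 2-fold cut, so near-full recovery was built in. It does not show how the rule fares on these libraries. For both siHHLA3 libraries over siNC, edgeR and DESeq2 each recovered 100% of 200 genes changed by 2 on the log2 scale among 13903 genes, with 6 false calls by edgeR and 0 by DESeq2. In that simulation both siHHLA3 libraries changed alike, with little spread between libraries. The real siHHLA3 libraries differ from each other, so this recovery does not carry over to the fit of these data.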

Additional observations from a re-analysis of the deposited data

Results flagged for a closer look

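NKX2-1, ELF3 and KLF5 lay on opposite sides of siNC with the different siRNAs, each by more than counting error. The log2 ratios over siNC were 0.13 with siHHLA3-1 and -0.89 with siHHLA3-3 for NKX2-1. They were 0.28 with siHHLA3-1 and -0.68 with siHHLA3-3 for ELF3. For KLF5 the order was the other way, with -0.41 for siHHLA3-1 and 0.24 for siHHLA3-3. The nearer ratio of each was ordinary among all genes above the filter. With siHHLA3-1, 65.2% of genes lay at least as far from 0 as NKX2-1 and 34.4% as far as ELF3. With siHHLA3-3, 40.3% lay at least as far as KLF5. The share of all genes on opposite sides by more than counting error was not computed. With 1 library per siRNA, the difference between the siRNAs was not tested.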

How the results depend on the processing

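No factor changed its 2-fold call with DESeq2 size factors, library totals, a pseudocount of 0.1, TPM, no filter or a mean of at least 5 CPM. With FPKM, 0 factors were 2-fold apart for siHHLA3-3 over siNC and 0 for siHHLA3-3 over siHHLA3-1, against 1 each; on that scale the added 1 weighs more. With a 1.5-fold threshold these were 4 and 4. Of 120 ratios of single factors under other scalings, 117 kept their sign; CEBPA with siHHLA3-3 over siNC changed from -0.03 to between 0.0037 and 0.02. The 188 genes 2-fold apart for siHHLA3-1 over siNC became 313 with a pseudocount of 0.1, 112 with FPKM and 1161 at 1.5-fold. The 317 for siHHLA3-3 over siNC became 175 with FPKM and 1279 at 1.5-fold, and 136 higher and 158 lower with TPM, against 112 higher and 205 lower. The 399 for siHHLA3-3 over siHHLA3-1 became 208 with FPKM and 1695 at 1.5-fold. No paired analysis was possible because each group holds 1 library. The low counts of CEBPA, GATA6 and SOX2 limit their precision most.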

Other observations

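A search covered 10908 genes with a usual gene symbol and a mean of at least 5 CPM over 3 libraries. For the 3 factors furthest from siNC on average, it sought the genes with the nearest pair of log2 ratios to siNC. For SOX2 they were MSX1, a homeobox gene, MERTK, a receptor tyrosine kinase, and HS6ST1, an enzyme of heparan sulfate, within a distance of 0.0351. For NKX2-1 they were B3GNT2, ENTPD5 and CHI3L1, within 0.0518, and for ELF3 RANBP6, GOLT1B and KLHDC7A, within 0.0262. Within a distance of 0.1 there were 7 genes for SOX2, 12 for NKX2-1 and 30 for ELF3. Both ratios of a gene share the siNC library, and likeness over 3 libraries is a description only.

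Of the marker lists of other cell types, that of alveolar type 1 cells had the highest sum, with 3 of 7 measured, at 400.2 TPM with siHHLA3-1, 445 TPM with siHHLA3-3 and 447 TPM with siNC. Nearly all of it was CAV1, a caveolar protein of many cell types, with a mean of 416 TPM. The 2 endothelial markers measured of 4, CDH5 and KDR, summed to 12.8 TPM with siHHLA3-1, 2.89 TPM with siHHLA3-3 and 5.40 TPM with siNC. CDH5 made up most of that sum, at 11.2 TPM with siHHLA3-1, 1.77 TPM with siHHLA3-3 and 4.47 TPM with siNC, whereas KDR stood at 1.57 TPM with siHHLA3-1, 1.12 TPM with siHHLA3-3 and 0.925 TPM with siNC. Of 8 neuroendocrine markers SYP alone was measured, at 1.46 TPM with siHHLA3-1, 12.0 TPM with siHHLA3-3 and 1.62 TPM with siNC. Of 6 fibroblast markers COL1A1 alone was measured, at 9.70 TPM with siHHLA3-1, 4.32 TPM with siHHLA3-3 and 4.27 TPM with siNC. The 3 alveolar type 2 markers measured of 9 summed to 161 TPM with siHHLA3-1, 106 TPM with siHHLA3-3 and 82.7 TPM with siNC, mostly LAMP3. The 4 ciliated markers measured of 5 summed to 30.004 TPM with siHHLA3-1, 24.1 TPM with siHHLA3-3 and 23.4 TPM with siNC, and of 4 club cell markers none was measured. Their part in the values of the factors was not tested. The 3 measured basal and squamous markers (TP63, KRT6A and S100A2) summed to 139 TPM with siHHLA3-1, 119 TPM with siHHLA3-3 and 145 TPM with siNC. Of 31 genes of gastric, intestinal and hepatic differentiation 2 were measured. SERPINA1 stood at 26.9 TPM with siHHLA3-1, 18.9 TPM with siHHLA3-3 and 20.6 TPM with siNC. AGR2 stood at 2.07 TPM with siHHLA3-1, 1.47 TPM with siHHLA3-3 (31 counts) and 2.08 TPM with siNC.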
